A study of Mus musculus with 60 samples.

Results

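The genes described here encode the proteins of the cytosolic ribosome, the particle that translates messenger RNA. They were chosen by name and by no measured value: every gene of the count table whose symbol is Rpl or Rps with a number and, for some, a few set letters, together with Rplp0, Rplp1, Rplp2 and Rpsa. The rule took 85 of the 24411 genes, 52 for the large subunit (its stalk included) and 33 for the small subunit. Pseudogenes with -ps in their symbol fell outside, as did Fau, which encodes a ribosomal protein fused to a ubiquitin-like protein. Rps4l matched the rule by name, although the GENCODE annotation lists it as a transcribed processed pseudogene.

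Ribosomal proteins are made in the cytoplasm, carried to the nucleolus and assembled there on ribosomal RNA into a small subunit, which reads the message, and a large subunit, which joins the amino acids. Their messages begin with a tract of pyrimidines, the 5′ TOP motif, through which the kinase complex mTORC1 and the protein Larp1 control how much each message is translated. Macrophages raise protein synthesis when they are activated, and the Kupffer cell is the resident macrophage of the liver.

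Kupffer cells were taken from the livers of C57BL/6J mice labelled male and 8 weeks old, 5 mice in each of 3 groups, and all mice were killed 12 h after a single injection. The wild-type oil group received corn oil, the wild-type CCl4 group received 2 µl/g of carbon tetrachloride in corn oil, and the Trem1-deficient CCl4 group received that dose of carbon tetrachloride. Carbon tetrachloride injures hepatocytes, and Trem1 encodes a receptor of myeloid cells that amplifies inflammatory signals. The labels do not say which part of Trem1 was removed, and there was no Trem1-deficient group given oil. Livers were digested with collagenase, hepatocytes were spun out, and the cells of a density gradient went over beads for CD11b and, for the fraction left, beads for F4/80. Then 3′ ends of messages were sequenced, so that each read comes from the end of a message and gene length does not enter the count.

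The libraries held 812320 to 2593004 reads in genes. Trem1 stood at 32.9 to 109 CPM (counts scaled to a common library size) in oil, 111 to 575 CPM in wild-type CCl4 and 1.17 to 10.9 CPM in Trem1-deficient mice. All 12 Kupffer cell markers were detected in every group, but their summed level was 28800 to 69200 CPM in oil and 46900 to 66200 CPM in Trem1-deficient mice against 4920 to 16700 CPM in wild-type CCl4. The summed level of 16 hepatocyte markers moved the other way, at 3490 to 16300, 2560 to 25900 and 15100 to 56200 CPM in that order of groups. So did the medians of 10 monocyte markers (738, 1080 and 3800 CPM) and of 10 neutrophil markers (592, 1890 and 6720 CPM). The monocyte sums ran from 545 to 1280, 790 to 1730 and 2120 to 4260 CPM. The neutrophil sums overlapped, at 226 to 1570, 414 to 3770 and 1100 to 10600 CPM. The barcode numbers in the sample descriptions form 2 interleaved series: the first covers the whole oil group with Trem1-deficient mice 1 and 2, and the second covers the whole wild-type CCl4 group with Trem1-deficient mice 3 to 5. The 7 libraries of the first series had 72 to 1552 Xist reads and 0 to 7 reads of 4 Y-linked genes, against their male label, and the 8 of the second had 1 to 31 and 134 to 425. CCl4 against oil therefore cannot be told apart from the series or from these transcripts, whereas Trem1-deficient against wild type can be compared within the second series. Oil mouse 2 and wild-type CCl4 mouse 5 had the lowest median Spearman correlation with their own groups (0.63 and 0.561). Wild-type CCl4 mouse 1 was not unlike its group by that measure (0.671), but had its lowest hepatocyte marker sum and its lowest ribosomal protein share. Counts of ribosomal protein genes past the threshold are given with and without these 3 libraries. In bulk samples, fewer cells of a type and less RNA per cell cannot be told apart.

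Ribosomal protein messages took a small share of the reads in genes, 1.79% ± 0.306 (SD, n = 15). By mouse number from 1 to 5, the share was 1.53%, 1.74%, 1.56%, 1.55% and 1.89% in oil, 1.13%, 1.83%, 1.78%, 2.04% and 2.29% in wild-type CCl4, and 2.07%, 2.27%, 1.79%, 1.55% and 1.85% in Trem1-deficient mice. The groups overlapped, with means of 1.65% ± 0.158, 1.82% ± 0.431 and 1.91% ± 0.275 (SD, n = 5 each), and wild-type CCl4 held both the lowest and the highest of the 15 values. Large-subunit genes took 0.701% ± 0.0578, 0.835% ± 0.212 and 0.826% ± 0.0819 of the reads, and small-subunit genes took 0.952% ± 0.119, 0.981% ± 0.225 and 1.08% ± 0.196. The ratio of large to small was 0.743 ± 0.0816 in oil, 0.849 ± 0.0706 in wild-type CCl4 and 0.773 ± 0.0728 in Trem1-deficient mice, again with overlapping mice.

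**Figure D1:**
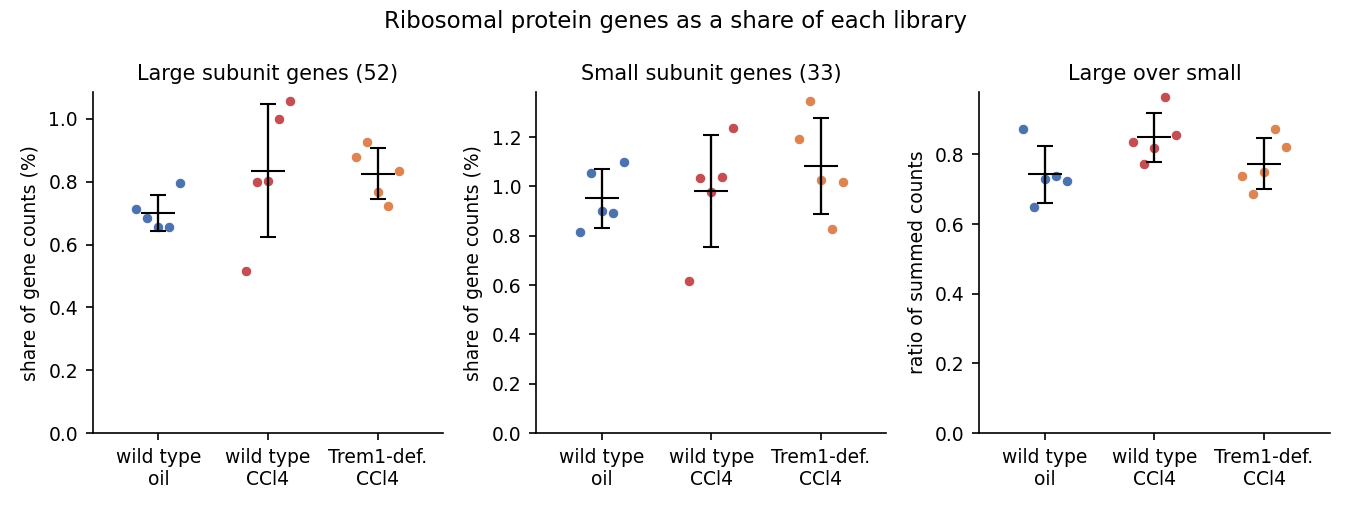
Share of the reads in genes taken by the 52 large-subunit genes (stalk included) and the 33 small-subunit genes, in percent, and the ratio of their summed counts, in the 15 mice. Points are mice 1 to 5 from left to right, and bars are the mean ± SD; the 3 groups overlap in each panel, and wild-type CCl4 mouse 1 has the lowest share of both subunits.

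Few genes carried most of these reads. Rps14, a protein of the small subunit's platform, had the highest mean level over the 15 mice at 1670 CPM, followed by Rps20 at 1581 CPM, Rps21 at 1263 CPM, Rps3, which lines the entry of the message, at 1076 CPM, the stalk protein Rplp1 at 967 CPM and Rpl8, of the large subunit, at 953 CPM. These 6 genes took 41.9% of all reads of the set. Of the 85 genes, 62 had enough reads to be tested (33 large and 29 small), with mean levels from 4.36 to 1670 CPM and a median of 80 CPM; 27 of them reached 100 CPM. The 23 others had 0 to 195 reads in all mice together, with a median of 48. They were Rpl10, Rpl10a, Rpl10l, Rpl11, Rpl12, Rpl15, Rpl23a, Rpl24, Rpl26, Rpl27, Rpl28, Rpl30, Rpl34, Rpl36, Rpl36a, Rpl39l, Rpl3l, Rpl5, Rpl7a, Rps12, Rps13, Rps23 and Rps27. Rpl26 had no read in any library, which allows up to 1.16 to 3.69 CPM depending on the library (3 reads each, counting error only). Of the tested genes, 45 had reads in all 15 mice.

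The levels are set here beside the sequence of the 3′ ends, because ribosomal protein genes have many processed pseudogenes. The sample descriptions carry the name of STAR's per-gene read output, in which reads that match several places go to a tally line and to no gene; settings used with it were not given in the sources used here. The table's tally of reads that matched several places was 9.86% ± 1.6 of all reads in oil, 16.3% ± 3.28 in wild-type CCl4 and 13.1% ± 2.99 in Trem1-deficient mice (SD, n = 5 each). For each gene, the last 300 bases of a coding transcript were cut into stretches of 50 bases, and those with no exact copy in another annotated gene were counted. The median share without a copy was 76.1% for the 27 genes at 100 CPM or more, 31.5% for the 35 tested genes below that and 18.7% for the 23 untested genes. Rps20 and Rps3 had no copied stretch, Rps14 had 77.7% without a copy and Rplp1 33.1%, while Rpl21 and Rpl9 had none without a copy. Across the 62 tested genes, which share their libraries, the Spearman correlation between this share and the total reads was 0.48. It was -0.376 across the 23 untested genes and 0.37 across all 85. Some low genes had unique annotated ends: Rpl11 and Rpl12 had no copied stretch and means of 2.3 and 1.13 CPM. Each end is that of 1 annotated transcript, which was 3706 bases long in Rps20 and 1242 in Rpl12. Whether the reads came from these ends was not tested. The part that multiply matched reads play in the comparisons was not tested.

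**Figure D2:**
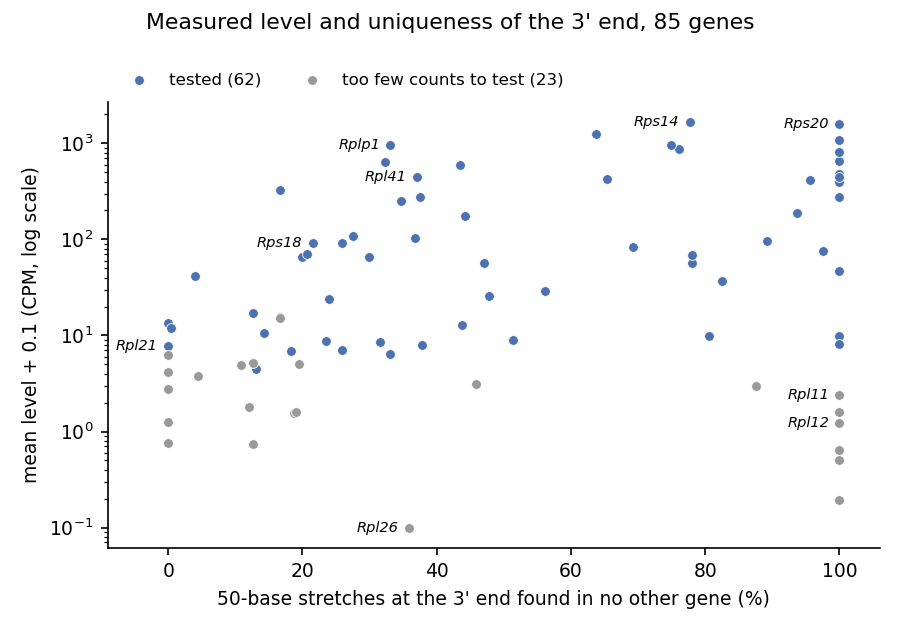
Mean level over 15 mice (CPM + 0.1, log scale) against the percentage of 50-base stretches in the last 300 bases that occur in no other gene, for the 62 tested and 23 untested genes. Genes at 100 CPM or more lie mostly to the right, with a median of 76.1%, and untested genes mostly to the left, with a median of 18.7%, but some untested genes, such as Rpl11 and Rpl12, have fully unique ends.

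Several of these genes have a close relative in the set. Rpl22 stood at 868 CPM and its relative Rpl22l1 at 66 CPM; Rpl7l1 stood at 76.5 CPM and Rpl7 at 6.96 CPM. Rpl36al stood at 65.1 CPM while Rpl36a was untested at 4.03 CPM, Rps27l stood at 68.7 CPM while Rps27 was untested at 1.15 CPM, and Rps4l stood at 36.9 CPM beside the X-linked Rps4x at 7.89 CPM. Rpl39 stood at 56.5 CPM, and Rpl3 at 8.66 CPM. Rpl3l, Rpl10l and Rpl39l, known mainly from muscle or testis, stood at 1.49, 0.093 and 0.41 CPM. None of these genes passed the test in any comparison, and the split of reads within a pair is uncertain.

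The 85 genes lie on 19 chromosomes, 14 of them on chromosome 7. Of the 85, 30 hold a small nucleolar RNA gene within their bounds, such as Rpl4 with 5, and 32 overlap another annotated gene. Promoters, taken as 250 bases before to 50 after the start in RefSeq (GRCm38.p6), were found for 64 of the 85. The ETS core CCGGAA, the motif of the GABP family, was present on either strand in 54.7% of them, against 16.7% of the 27025 genes with a promoter in the same table. GGGCGG, the Sp1 core, was present in 62.5% against 38.2%, and GATGGC, the YY1 core, in 23.4% against 15.9%. CTTTC, a form of the pyrimidine tract, stood on the sense strand within 30 bases of the start in 34.4% of them against 9.18% of all genes. The motifs were counted on both strands unless said, they can overlap one another, and a match is a description of letters, not a bound site.

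The 4 genes that passed the test after CCl4 carried these motifs upstream of their RefSeq starts. The stretches of Rpl41, Rplp2 and Rps18 lie within the GENCODE bounds of these genes, given below. They are thus upstream of the RefSeq start only. The part of the motifs in the calls was not tested. Each line gives 30 bases, 5′ to 3′ on the gene's strand in GRCm38.p6, with the motif in capitals: the ETS core, or its reverse complement in Rplp2, and the pyrimidine tract in Rpl4.
Rpl41, chr10:128549207-128549236, minus strand: ctagtaaggcagCCGGAAgtcgctgtctcg
Rplp2, chr7:141447532-141447561, plus strand: gaaatgtcttccTTCCGGtgcacccttttc
Rps18, chr17:33955723-33955752, minus strand: gagaagcaatttCCGGAAgtggacctccgg
Rpl4, chr9:64173357-64173386, plus strand: acaagtgacaagtCTTTCcttttcctgtgg
The first base of the motif lies 56 bases before the RefSeq start in Rpl41, 107 in Rplp2, 75 in Rps18 and 17 in Rpl4.

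CCl4 against oil in wild-type mice asks what the toxin did to the cells collected as Kupffer cells. Of the 62 tested ribosomal protein genes, 4 rose and none fell at an adjusted p under 0.05 in edgeR's quasi-likelihood test: Rpl41, Rplp2, Rpl4 and Rps18. That is 6.45% of them, against 5.13% of all 9001 tested genes in either direction and 3.04% higher. The share is near the background, and among genes at 100 CPM or more it was 3 of 27, or 11.1%, against 16.2% of 1786. The median log2 fold change of the 62 genes was 0.318, with 44 above 0, against a median of 0.0563 over all genes. The median was 0.319 in the large subunit and 0.317 in the small. Scaling to the library total in place of trimmed means (TMM) lowered the median of all genes by 0.184 and that of the set to 0.151, so that the difference between them, 0.262, became 0.279.

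Rpl41 encodes the smallest protein of the large subunit, a short and very basic peptide. Its gene lies at chr10:128548114-128549305 (GRCm38, minus strand). The level in oil mice 1 to 5 was 270, 404, 247, 272 and 243 CPM. In wild-type CCl4 it was 452, 612, 1150, 1330 and 538 CPM. Every CCl4 mouse was above every oil mouse, and CCl4 mice 3 and 4 stood well above the other three. The means were 287 ± 66.7 and 817 ± 397 CPM (SD, n = 5 each), a log2 fold change of 1.51 ± 0.313 (SE, adjusted p = 0.00289). Its part of all ribosomal protein reads was 1.74% ± 0.253 in oil and 4.02% ± 1.76 in CCl4 (SD, n = 5 each). The call held in 24 of 25 alternatives, with log2 values from 1.26 to 1.96. It was lost when the barcode series entered as a term (1.79, adjusted p = 0.233), a fit in which the Trem1-deficient mice alone set the series effect. Only 37.1% of its end stretches were without a copy, all copies lying in 1 other gene, Gm10076, which is not a row of the count table.

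Rplp2 encodes one of the acidic proteins of the stalk, which calls elongation factors to the ribosome. Its gene lies at chr7:141447370-141451585 (plus strand). Oil mice 1 to 5 had 97.7, 114, 113, 121 and 153 CPM. Wild-type CCl4 mice had 95.1, 325, 282, 439 and 454 CPM. CCl4 mouse 1 lay below all oil mice and the other 4 lay above all of them. The log2 fold change was 1.41 ± 0.382 (SE, adjusted p = 0.0250), and the call held in 17 of 25 alternatives, being lost without oil mouse 1, 3 or 4 or CCl4 mouse 4. Of its end stretches, 93.6% had no copy elsewhere. The partners of Rplp2 in the stalk were not past the threshold. Rplp0, the base of the stalk, had 278, 402, 277, 297 and 350 CPM in oil and 306, 545, 409, 782 and 667 CPM in CCl4. That gave 0.756 ± 0.283 (SE, adjusted p = 0.123), with overlapping groups; without wild-type CCl4 mouse 1, Rplp0 joined the called genes. Rplp1 had means of 958 ± 155 and 954 ± 137 CPM (SD, n = 5 each) and a log2 fold change of -0.00678 ± 0.231 (SE).

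Rpl4 is a large-subunit protein that reaches into the exit tunnel of the nascent chain. Of the 4 genes, Rpl4 had the smallest SD within groups on the log2 scale. Its gene lies at chr9:64173375-64178666 (plus strand), and its end has no copy in another gene. Oil mice had 468, 538, 479, 515 and 502 CPM. Wild-type CCl4 mice had 771, 872, 868, 1330 and 898 CPM. All 5 CCl4 mice were above all 5 oil mice, with means of 947 ± 218 against 500.4 ± 28 CPM (SD). The log2 fold change was 0.921 ± 0.243 (SE, adjusted p = 0.0215), past the threshold in 17 of 25 alternatives and lost without oil mouse 1, 3, 4 or 5 or CCl4 mouse 4. Of the 62 genes, 3 had groups that did not overlap, Rpl41, Rpl4 and Rpl14, which is 4.84% against 6.58% of all tested genes. Rpl14, another large-subunit protein, had 299, 312, 294, 241 and 312 CPM in oil and 489, 593, 549, 353 and 328 CPM in CCl4. Its log2 fold change was 0.665 ± 0.29 (SE, adjusted p = 0.202).

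Rps18, a protein of the small subunit's head, had the weakest call. Its gene lies at chr17:33951999-33956001 (minus strand) and overlaps Vps52 on the other strand. Oil mice had 28.2, 2.5, 41.4, 57.6 and 63.1 CPM. Wild-type CCl4 mice had 43.2, 137, 94.5, 105 and 454 CPM, so that mouse 1 fell within the range of oil and mouse 5 stood far above the rest. The log2 fold change of 2.09 ± 0.632 (SE, adjusted p = 0.0486) stayed past the threshold in 7 of 25 alternatives. It was lost without any single oil or Trem1-deficient mouse, and without any single wild-type CCl4 mouse except mouse 1 or 4. Only 21.5% of its end stretches had no copy elsewhere.

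Of all tested genes, 19% had an unadjusted p under 0.05 in either direction. Among the 62 tested genes of the set, 12 were higher at that level, a count of higher genes only and so not the same measure. The 8 of them that did not pass the adjusted test were Rplp0, Rpl13 and Rpl14 of the large subunit and Rps2, Rps15, Rps15a, Rps24 and Rps26 of the small, with log2 values from 0.615 in Rps24 to 1.32 in Rps2. Among other large values, Rpl6 had 1.43 ± 1.38, Rpl31 -1.69 ± 1.11, Rpl21 -1.92 ± 1.41 and Rpl3 -2.39 ± 1.29 (log2 ± SE), all with means under 25 CPM and none past the threshold. Of the most abundant genes, Rps14 had -0.37 ± 0.236, Rps20 0.384 ± 0.271, Rps21 0.143 ± 0.292, Rps3 0.317 ± 0.25 and Rpl8 0.139 ± 0.26. Without oil mouse 2 and wild-type CCl4 mice 1 and 5, 5 genes passed and all were higher: Rpl41, Rpl4, Rplp2, Rplp0 and Rps26, with Rps18 lost. The share of all tested genes that passed in this refit is not given here. Rpsa, the small-subunit protein also known as a laminin receptor, had 0.592 ± 0.463.

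**Figure D3:**
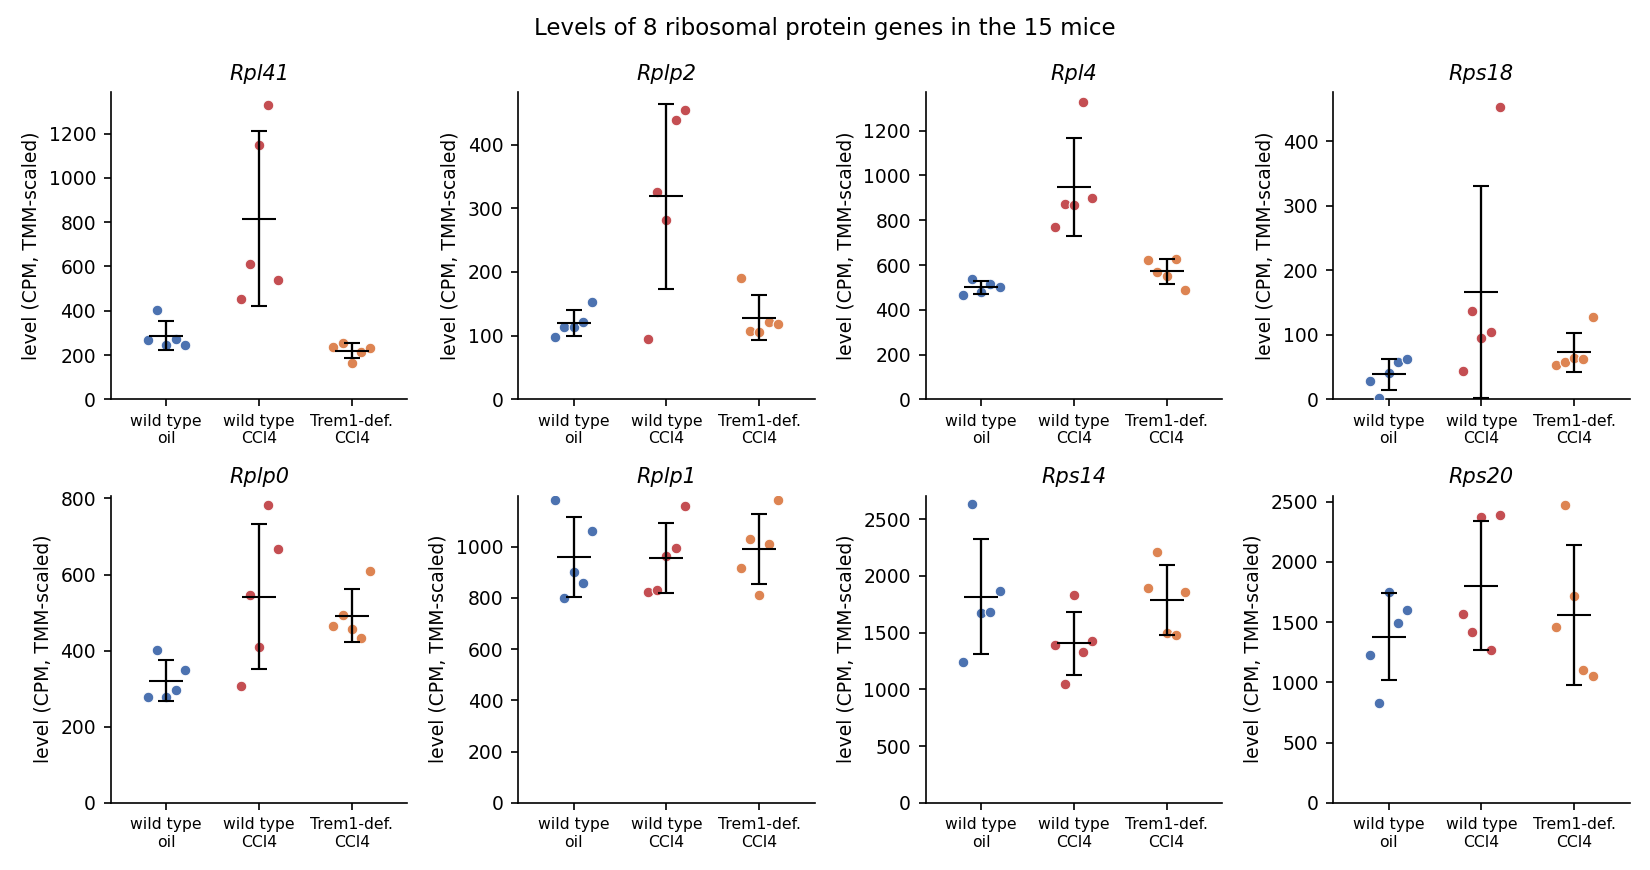
Level in CPM (TMM-scaled) of 8 ribosomal protein genes in the 15 mice; points are mice 1 to 5 from left to right in each group and bars are the mean ± SD. For Rpl41 and Rpl4 the 5 wild-type CCl4 mice lie above all oil and all Trem1-deficient mice, Rplp2 overlaps oil only through wild-type CCl4 mouse 1, Rps18 overlaps both other groups, and Rplp1, Rps14 and Rps20 overlap throughout.

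Trem1-deficient against wild-type mice, both given CCl4, asks what the loss of the receptor changed. Only Rpl41 of the 62 genes passed the test, and it was lower in Trem1-deficient mice. That is 1.61% of the set, against 2.06% of all 9001 genes in either direction, 1.28% lower and 0.778% higher. This comparison and the one before share the wild-type CCl4 mice, so a high value in those mice enters both. Trem1-deficient mice 1 to 5 had 238, 254, 163, 212 and 233 CPM of Rpl41, all below the lowest wild-type CCl4 mouse at 452 CPM. The mean was 220 ± 35.1 CPM (SD, n = 5), and the log2 fold change was -1.89 ± 0.317 (SE, adjusted p = 0.000833). Its part of all ribosomal protein reads was 1.25% ± 0.153. The call held in all 26 alternatives, from -2.18 to -1.63. Within the second barcode series alone, Trem1-deficient mice 3 to 5 against the 5 wild-type mice gave -1.99 (adjusted p = 0.0346).

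The other 3 genes that rose after CCl4 were lower in Trem1-deficient mice without passing the test. Rplp2 had 190, 107, 105, 122 and 118 CPM, a log2 fold change of -1.31 ± 0.38 (SE, adjusted p = 0.0623) that passed in 7 of 26 alternatives. These 5 mice all lay below the 4 higher wild-type CCl4 mice and above wild-type CCl4 mouse 1, without which Rplp2 passed. Rpl4 had 624, 567, 553, 626 and 489 CPM, all below the lowest wild-type CCl4 mouse at 771 CPM, with -0.728 ± 0.242 (SE, adjusted p = 0.113). Rps18 had 52.8, 57.2, 63.9, 62 and 127 CPM, with -1.2 ± 0.612 (SE, adjusted p = 0.351). Groups did not overlap for Rpl41 and Rpl4, 3.23% of the 62 genes against 5.54% of all tested genes. Rplp0 had 465, 494, 456, 433 and 610 CPM, within the range of wild-type CCl4, and -0.141 ± 0.281 (SE).

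The median log2 fold change of the set was -0.209, against -0.0264 over all genes, with 18 of 62 above 0. Under library-total scaling the sign of the set's median turned, to 0.0897, while the median of all genes moved by 0.288; the set lay below all genes by 0.183 with TMM and by 0.172 with library totals. The small-subunit median was -0.404 and the large-subunit median -0.104. At an unadjusted p under 0.05, 5 genes were lower and 0 higher: Rpl41, Rplp2, Rpl4, Rps2 and Rps15a, against 15.2% of all genes in either direction. Rps2, which lies at the message's entry to the small subunit, had -1.62 ± 0.624 (SE, adjusted p = 0.196). High values, Rpl21 at 2.41, Rpl3 at 1.94 and Rpl7 at 1.68, and the low value of Rpl6 at -2.65, were in genes with means under 11 CPM and did not pass. Without oil mouse 2 and wild-type CCl4 mice 1 and 5, an alternative added after seeing the data, 5 genes passed and all were lower: Rpl41, Rpl4, Rplp2, Rps2 and Rps26. Without wild-type CCl4 mouse 1 alone, 4 passed, namely Rpl41, Rpl4, Rplp2 and Rps2. For neither refit is the share of all tested genes given here, so these counts are not set against a background.

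Trem1-deficient mice given CCl4 against wild-type mice given oil changed both the genotype and the injection. None of the 62 genes passed edgeR's test, and none passed in DESeq2, against 0.233% of all 9001 genes in edgeR (0.178% higher and 0.0555% lower). The 2 groups also enter the comparisons above. At an unadjusted p under 0.05 there was 1, Rplp0, against 4.66% of all genes. Rplp0 was 321 ± 54.2 CPM in oil and 492 ± 69.8 CPM in Trem1-deficient mice (SD, n = 5 each), a log2 fold change of 0.616 (adjusted p = 0.971). All 5 Trem1-deficient mice had more Rplp0 than any oil mouse, and it was the only one of the 62 genes (1.61%, against 2.9% of all genes) for which the groups did not overlap. Rpl41 had -0.383 (adjusted p = 1), Rplp2 0.0996, Rpl4 0.193 and Rps18 0.898. High values were Rpl17 at 1.84, Rpl7 at 1.27 and Rpl29 at 1.11, and the lowest were Rpl18 at -1.28, Rpl6 at -1.21 and Rps28 at -1.06, none past the threshold. The set's median was 0.101, against 0.0178 over all genes. Within the first barcode series, Trem1-deficient mice 1 and 2 against the 5 oil mice, again no gene of the set passed, and the median was 0.201.

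**Figure D4:**
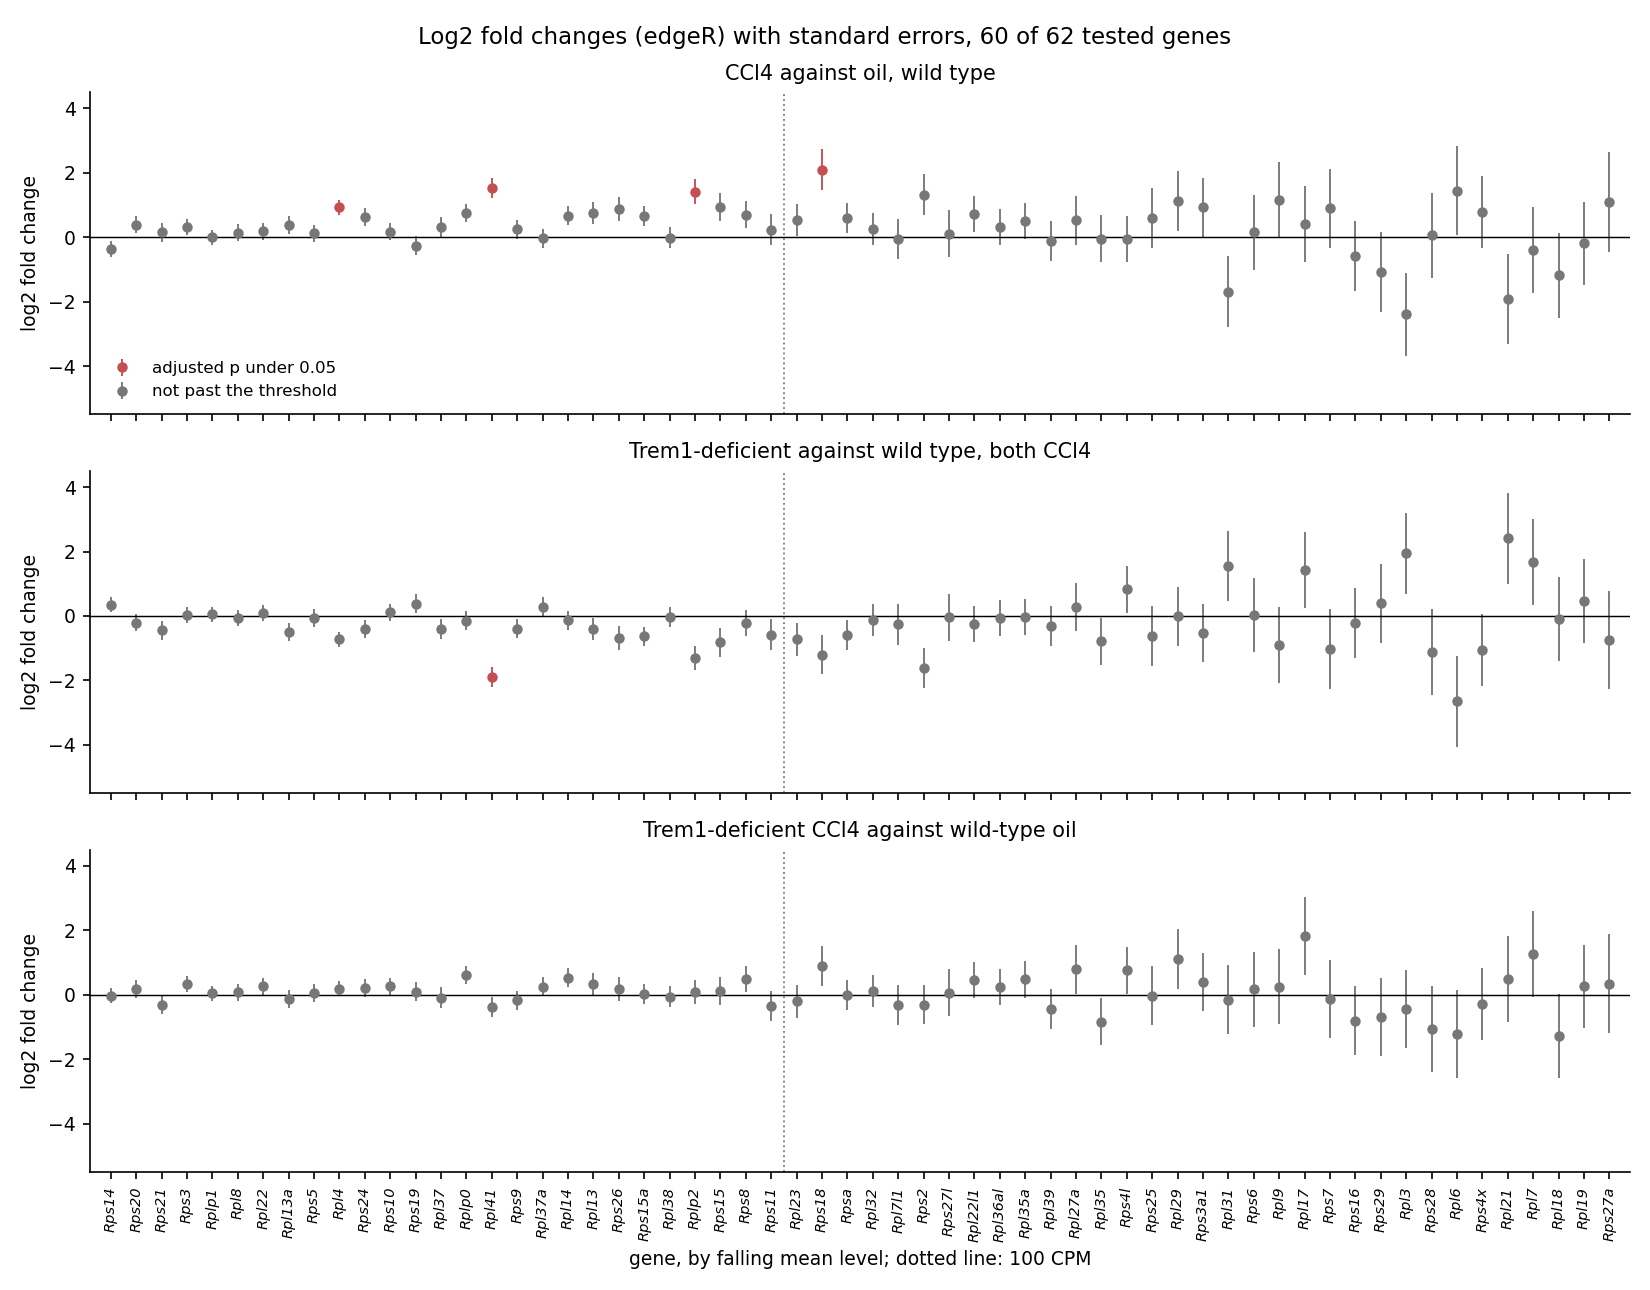
Log2 fold change with its standard error (edgeR) for 60 of the 62 tested genes in the 3 comparisons, ordered by falling mean level, with 100 CPM marked by a dotted line. The errors widen to the right; red marks genes past an adjusted p of 0.05, which are Rpl4, Rpl41, Rplp2 and Rps18 for CCl4 against oil, Rpl41 for Trem1-deficient against wild type, and none in the last panel.

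The median SD of log2(CPM + 1) within groups was 0.374 for the 27 genes at 100 CPM or more, and 0.621 for all 1786 genes at 100 CPM or more. The sets differ in level, with median means of 480 and 185 CPM. Among the 35 tested genes below 100 CPM it was 1.44, and over all 9001 genes 1.4. The genes with the most likeness to the set's summed level over the 15 mice, among 3297 other genes at 50 CPM or more, were Pi4ka (Spearman 0.925), Gnb2l1 (0.871), Pkm (0.846), Hmha1 (0.843), Esd (0.829), Mrpl52 (0.818), Fbxw2 (0.811) and Tagln2 (0.8). Gnb2l1 encodes Rack1, a protein bound to the small subunit. Of the ribosomal protein genes at 50 CPM or more, the most like Rpl41 was Rps2. Its Spearman correlation with Rpl41 was 0.596, which ranked 198.5 among 3334 genes. Such a ranking is given here for Rpl41 only. The correlation of Rpl41 with the other genes of the set was 0.432. Among the most abundant genes, this value was lower in Rps14 (0.114), Rps20 (0.0536) and Rplp1 (0.136). It was higher in Rps21 (0.589), Rps3 (0.732) and Rpl8 (0.489). Weak likeness to the set was thus not particular to Rpl41.

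Other genes of ribosome production and its control, on lists chosen with earlier results of these data known, give the surroundings. Of 36 tested genes of ribosome biogenesis, 6 rose after CCl4 (16.7%, against 5.13% of all tested genes in either direction and 16.2% of those at 100 CPM or more): Ncl, Nop14, Lyar, Dkc1, Ddx21 and Mybbp1a. The calls of Ncl, Lyar and Dkc1 held in 24 of 25 alternatives, that of Nop14 in 23, that of Mybbp1a in 18 and that of Ddx21 in 17; all 6 were lost with the barcode series as a term. Without oil mouse 2 and wild-type CCl4 mice 1 and 5, Nop14 (1.31, adjusted p = 0.0563) and Mybbp1a (1.4, adjusted p = 0.054) did not pass. The list's median log2 fold change was 1.05, against 0.0563 over all genes. Ncl encodes nucleolin, the main protein of the nucleolus. It went from 1770 ± 257 CPM in oil to 4490 ± 2670 CPM in wild-type CCl4 (SD, n = 5 each), a log2 fold change of 1.35 ± 0.27 (SE, adjusted p = 0.00221). It was 2080 ± 149 CPM in Trem1-deficient mice, -1.11 ± 0.269 against wild-type CCl4 (SE, adjusted p = 0.0236). This second call held in 18 of 26 alternatives. It was lost without wild-type CCl4 mouse 1, which had 9040 CPM against 2450 to 4640 CPM in the other 4 (-0.683, adjusted p = 0.0534), without the 3 libraries named above (-0.621, adjusted p = 0.0785) and without Trem1-deficient mouse 2 or 3. It was also lost with library totals, with the 2 groups alone, with the barcode series as a term and within the second series. Ncl was the only biogenesis gene called in that comparison, in which the list's median was -0.613 against -0.0264 over all genes. Against oil, Trem1-deficient mice had a list median of 0.418, against 0.0178 over all genes. No gene of the list was called in edgeR or DESeq2, against 0.233% of all tested genes in edgeR. At an unadjusted p under 0.05 there were 5 of 36, against 4.66% of all tested genes.

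Of 27 tested translation factors and other TOP messages, only Npm1 rose after CCl4 (3.7%, against 5.13% of all tested genes in either direction). It was also the only one called for Trem1-deficient against wild type (3.7%, against 2.06%). Npm1, nucleophosmin, moves ribosomal subunits out of the nucleolus. It stood at 69.1 ± 39.2 CPM in oil, 325 ± 104 CPM in wild-type CCl4 and 94.7 ± 30 CPM in Trem1-deficient mice (SD, n = 5 each). The log2 values were 2.23 ± 0.489 (SE, adjusted p = 0.00481) for CCl4 against oil and -1.78 ± 0.481 (SE, adjusted p = 0.0451) for Trem1-deficient against wild type. The first call held in 24 of 25 alternatives and was lost with the barcode series as a term. The second held in 13 of 26. It was lost without any single Trem1-deficient mouse, with the barcode series as a term and within the second series. The list's medians were 0.488 and -0.35. Eef1a1, the elongation factor that brings transfer RNA, had 546, 766 and 382 CPM in the 3 groups and did not pass (adjusted p = 0.0607 for Trem1-deficient against wild type).

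Of 20 tested genes of mTORC1 and TOP control, Ddit4, an inhibitor of mTORC1, was higher than in oil in both CCl4 groups. It was the only gene of the list called in these comparisons (5% each, against 5.13% and 0.233% of all tested genes). Its means were 72.4 CPM in oil, 251 CPM in wild-type CCl4 and 287 CPM in Trem1-deficient mice, with 1.79 ± 0.381 (adjusted p = 0.00351) and 1.99 ± 0.382 (adjusted p = 0.0107) against oil. The first of these held in 24 of 25 alternatives and was lost with the barcode series as a term. The second was lost in 6 of 26 alternatives: with that term, within the first series, and without oil mouse 1, 3 or 4 or Trem1-deficient mouse 5. Eif4ebp1, which holds back the cap-binding factor, had 16.4, 82.6 and 23.4 CPM without passing (adjusted p = 0.0748 for CCl4 against oil). Of 12 tested genes of p53 and nucleolar stress, Gadd45a and Trp53inp1 rose after CCl4 (16.7%, against 5.13% of all tested genes) and Gadd45a was lower in Trem1-deficient mice (8.33%, against 2.06%). Gadd45a, a stress gene of growth arrest, had 27.4 ± 24.7 CPM in oil, 603 ± 626 CPM in wild-type CCl4 and 79.1 ± 35.5 CPM in Trem1-deficient mice (SD, n = 5 each). Wild-type CCl4 mouse 1 alone had 1720 CPM, against 267 to 425 CPM in the other 4. The log2 values were 4.48 ± 0.645 (SE, adjusted p = 0.000135) and -2.93 ± 0.594 (SE, adjusted p = 0.00914), and both were lost with the barcode series as a term. Without wild-type CCl4 mouse 1 they were 3.58 (adjusted p = 6.63e-05) and -2.03 (adjusted p = 0.0187). Without the 3 libraries named above, Gadd45a was also higher in Trem1-deficient mice than in oil (2.22, adjusted p = 0.0093). Trp53inp1, a p53-induced nuclear protein, had 3.04 ± 0.88 (SE, adjusted p = 0.0428). Its call held in 15 of 25 alternatives and was also lost with the barcode series as a term. Rpl5 and Rpl11, which bind Mdm2 when assembly is disturbed, had too few reads to be tested.

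The proteins of the mitochondrial ribosome are a separate set, encoded by other genes. Of 67 tested, none passed edgeR's test in any comparison, against 5.13%, 2.06% and 0.233% of all tested genes. At an unadjusted p under 0.05 there were 4, 4 and 0, against 19%, 15.2% and 4.66% of all tested genes. DESeq2 called 2, 1 and 0, and its share of all genes is not given here. The medians were -0.115, 0.415 and 0.254, against 0.0563, -0.0264 and 0.0178 over all genes. Fau was too low to be tested. Of the 7 pseudogenes named -ps, 2 could be tested, and neither Rpl14-ps1 (89.1, 130 and 104 CPM) nor Rps15a-ps6 passed.

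In the wild-type CCl4 group, the median hepatocyte, monocyte and neutrophil marker sums were highest and the median Kupffer cell sum was lowest. The hepatocyte and neutrophil sums overlapped between groups. Rpl41, Rplp2, Rpl4, Npm1 and Ncl were higher in that group. All 12 Kupffer cell, 16 hepatocyte and 10 monocyte markers and the 10 neutrophil markers in the table had reads in every group. Their part in these results was not tested. Within its group, wild-type CCl4 mouse 1 had the lowest hepatocyte and monocyte sums, 15100 and 2120 CPM, and the highest Kupffer cell sum, 16700 CPM. It also had the lowest Rpl41, Rplp2 and Rpl4 and the highest Ncl. The other mice did not all follow this order. Mouse 4 had the highest Rpl41 and Rpl4 and the lowest Kupffer cell sum, 4920 CPM. Its hepatocyte sum, 28800 CPM, was lower than in mice 2, 3 and 5. Mouse 2 had the highest hepatocyte sum, 56200 CPM, with Rpl41 at 612 CPM.

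**Figure D5:**
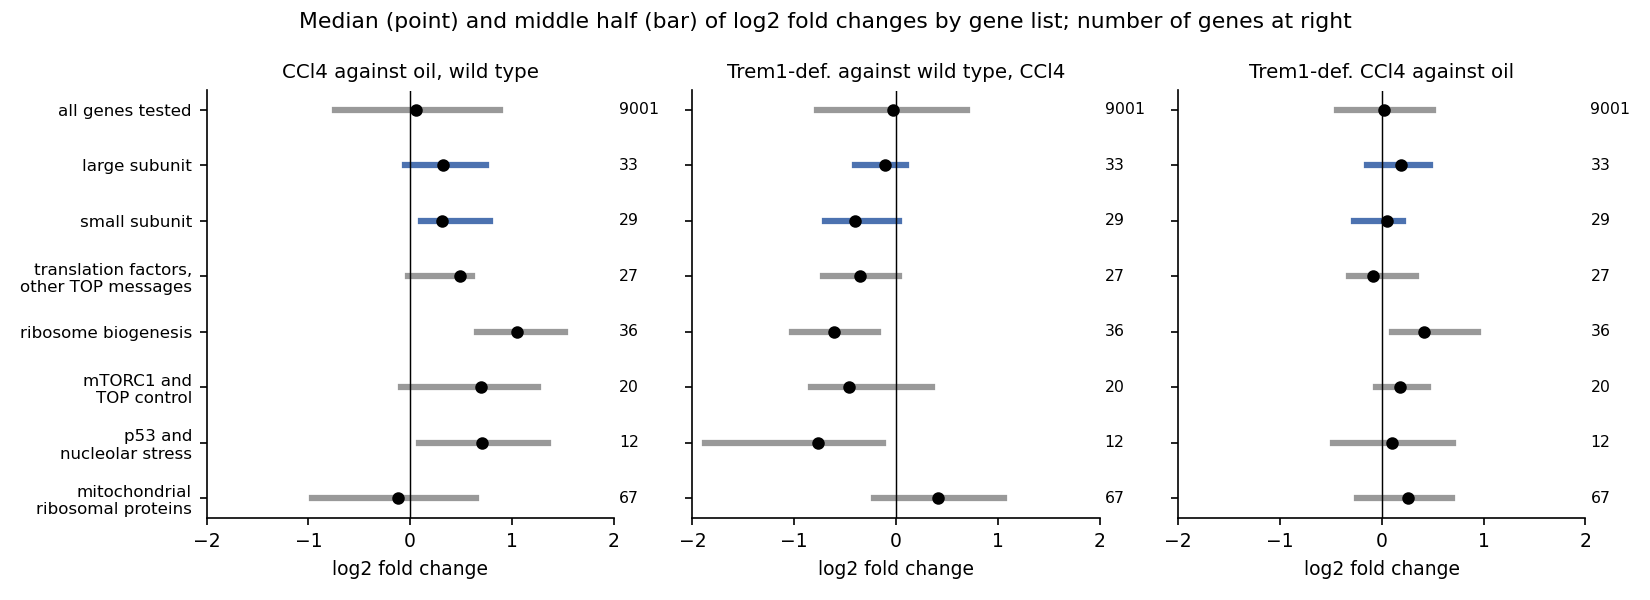
Median (point) and interquartile range (bar) of log2 fold changes over the tested genes of each list in the 3 comparisons, with the number of genes at the right and the ribosomal protein genes in blue. The ribosomal protein medians lie nearer to 0 than those of ribosome biogenesis, which are 1.05, -0.613 and 0.418.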

How the data were processed

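Kupffer cell RNA from 15 mice was made into 3′ tag libraries (Lexogen QuantSeq) and sequenced on 4 lanes per mouse, and the authors deposited 1 column of whole-number read counts per gene and mouse, per the file headers. Per the submitters' processing notes, Trimmomatic, STAR 2.5.1a, Partek 6.6 and mm10 were used, with no roles stated; counting settings were not given in the sources used here. The 4 tally lines were left out of library sizes; reads in genes were 12.6% to 28.8% of all reads in the table. Libraries held 812320 to 2593004 reads in genes, and every pair of mice in a group differed beyond counting noise (smallest chi-square/df 10.2).

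Counts were fitted with edgeR 4.0.16 in R 4.3.3 (filterByExpr by group, TMM, robust quasi-likelihood test), 1 fit of 15 mice in 3 groups with 12 residual degrees of freedom, and Benjamini-Hochberg adjustment over all 9001 genes tested at a threshold of 0.05. CPM are TMM-scaled; the sums of marker genes and the shares use library totals. The members and gene lists were chosen with earlier results of these data known. Genes were named by a fixed rule: those called, the 4 highest and lowest values per comparison, the 6 most and least abundant, paralog pairs and stalk proteins, and up to 4 genes per other list; Rpl9, Rpl11, Rpl13, Rpl14, Rps15, Rps15a, Rps24 and Rps26 were named after their values were seen, and the untested genes by being untested. A few genes that the rule names are not reported here. Alternatives were other scaling (RLE, library totals, TMM factors without the set), DESeq2 1.42.0, other filters, the 2 groups alone, mouse number as a block, barcode series, and each mouse left out. The mouse numbers shared by the groups do not pair mice. The scripts were tested on simulated data with the levels and spread of all tested genes. Of simulated 4-fold changes, 32.4%, 20% and 24% were recovered in the 3 comparisons, and of 8-fold changes 64.5%, 48.8% and 57.1%. A gene that did not pass may thus have changed. Transcripts and positions are from GENCODE M21 (GRCm38), promoters from RefSeq.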

Additional observations from a re-analysis of the deposited data

Results flagged for a closer look

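Of 27 groups of 5 mice examined (the summed share and 8 genes in 3 groups), 5 held 1 mouse whose gap to the next was over 0.71 of the group's range. Chance flags about 1 in 20 such groups. Rpl41 stood at 404 CPM in oil mouse 2, against 243 to 272 CPM in the other oil mice. Rpl4 stood at 1330 CPM in wild-type CCl4 mouse 4, against 771 to 898 CPM in the rest of its group. Rps18 stood at 454 CPM in wild-type CCl4 mouse 5, against 43.2 to 137 CPM. Rplp2 stood at 190 CPM in Trem1-deficient mouse 1, against 105 to 122 CPM. Rps18 stood at 127 CPM in Trem1-deficient mouse 5, against 52.8 to 63.9 CPM.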

How the results depend on the processing

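For CCl4 against oil, the count of 4 genes called became 1 with library totals (Rpl41), 1 with the 2 groups alone (Rpl41), 2 with the mouse number as a block (Rpl4 and Rpl41) and 0 with the barcode series as a term; with 1 mouse left out it ran from 1 to 5. For Trem1-deficient against wild type, the count of 1 became 2 with RLE scaling, 2 with no filter and 2 with a stricter filter (Rplp2 joining Rpl41), 3 with DESeq2, and 5 without oil mouse 2 and wild-type CCl4 mice 1 and 5, an alternative added after seeing the data; with 1 mouse left out it ran from 1 to 4. For Trem1-deficient mice against oil it was 0 in all 26 alternatives. None of the counts in this section is set beside the share of all tested genes called under the same alternative. The set's median ran from 0.151 to 0.492, from -0.355 to 0.0897 and from 0.0404 to 0.218 in the 3 comparisons. Leaving the 100 most abundant other genes out of the total gave mean shares of 2.61%, 2.86% and 2.89% in oil, wild-type CCl4 and Trem1-deficient mice. The denominator change was the one shift of a summed share beyond its SD between mice. Of 2408 refitted values of named genes of the set, 35 lost and 15 gained the threshold, 0 called values changed sign, and 151 values that had not passed turned sign. DESeq2 moved the count of ribosome biogenesis genes from 6 to 10, and the barcode series as a term moved it to 0. The block was no pairing: same-numbered mice had correlations of -0.0577 to 0.0411 over 15 pairs. The cause of these changes was not tested. The 35 tested genes under 100 CPM had a median SD between mice of 1.44 on the log2 scale, and the 23 untested genes had at most 195 reads in all.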
